A study of Mus musculus with 14 samples.

Results

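Axon guidance ligands and their receptors were followed in the newborn mouse cortex, at postnatal day 0.5, in 2 settings: with Auts2 deleted, and in RNA pulled down with an antibody against AUTS2. The genes were taken by symbol, as the protein-coding members of the semaphorin, Slit, netrin and ephrin ligand families (20, 3, 4 and 8 genes) and of the plexin, neuropilin, Robo, Dcc and Unc5, and Eph receptor families (9, 2, 4, 5 and 14 genes). They numbered 69, 35 ligands and 34 receptors, of 21845 protein-coding gene symbols with a transcript in the tables. The noncoding Plxna4os1, Plxna4os2 and Plxna4os3, which share the letters of a plexin, were not taken.

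The frontal cortex set held 4 conditional knockout (cKO) and 4 wild type (WT) libraries. The cKO mice carried 2 floxed alleles of Auts2 exon 15 and the Emx1-cre driver, which acts in the dorsal progenitors that give rise to excitatory neurons and astrocytes of the cortex, and not in interneurons, vessels or microglia. The WT mice are given as C57BL6/J, with no floxed or Cre allele named, so an effect of the Cre or of the floxed strain cannot be told apart from that of the deletion. The pull-down set came from C57BL6/J cortex. It held 2 libraries of RNA immunoprecipitated with an AUTS2 antibody directed at its C-terminal end (RIP), 2 with control IgG and 2 of the 10% Input, as trios A and B, each split from a pool of 2 neonates. The frontal cortex libraries were made from polyA-selected RNA and the pull-down libraries from total RNA.

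Semaphorins signal through plexins, and the secreted Sema3 proteins mostly do so with a neuropilin as the co-receptor that binds them. Slits repel axons through Robo receptors, netrins attract through Dcc and repel through Unc5 receptors, and ephrins, which stay attached to the membrane, bind Eph receptor tyrosine kinases and can signal in both directions. In the newborn cortex these systems are known for steering callosal, corticospinal and thalamocortical axons and for the migration of excitatory neurons and interneurons.

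Values are FPKM, fragments per kilobase of transcript and per fixed number of fragments, summed over the transcripts of a gene. The tables give no counts, so the depth of a library is unknown and no counting interval was set, and the precision rests on the spread between libraries alone. Library sums ran from 282029 to 340979 FPKM. Auts2 itself, the deleted gene, stood at 29.8, 35.2, 30.4 and 34.5 FPKM in the cKO libraries, against 87.7, 92.2, 55.9 and 60.2 FPKM in the WT libraries (log2 fold change -1.13, adjusted p = 0.0237 by limma). WT libraries 1 and 2 stood above WT libraries 3 and 4 for Auts2 and for several guidance genes below. Of the 11 marker lists for cell types, the Cajal-Retzius list summed to 71.8, 57.1, 55.0 and 53.7 FPKM in the cKO libraries, against 50.5, 51.7, 48.5 and 45.6 FPKM in the WT libraries, with no overlap. The sums of the other lists overlapped. The interneuron list summed to 407, 269, 280 and 322 FPKM in cKO, against 264, 263, 261 and 271 FPKM in WT, and the excitatory neuron list, which stands for the labelled tissue, to 731 to 821 FPKM in cKO, against 768 to 817 FPKM in WT. No marker was at 0 in every library. No marker passed the test between cKO and WT. The column taken as cKO 4 was matched to its sample by library number, its written name differing by 1 character from the label, and statements on that library alone rest on this match.

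Most guidance genes were expressed in the frontal cortex. A mean of at least 1 FPKM over the 8 libraries, the level required for a test, was reached by 59 of the 69 genes, and 41 had a mean of at least 10 FPKM. The 10 genes not tested were Sema3b, Sema3d, Sema3e, Sema3g, Slit3 and Ntn5 among the ligands, and Epha1, Epha2, Robo3 and Plxnb3 among the receptors.

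Among the ligands, the ephrin-B genes Efnb2 and Efnb3 had the highest means, while the remaining ephrin-B gene, Efnb1, averaged 14.0 ± 2.01 FPKM in cKO and 15.5 ± 0.644 FPKM in WT. Efnb2, a transmembrane ephrin, averaged 60.5 ± 3.45 FPKM in cKO and 67.0 ± 11.3 FPKM in WT (SD, n = 4 each). Efnb3, the midline ephrin that keeps corticospinal axons from recrossing, averaged 65.7 ± 2.11 FPKM in cKO and 61.3 ± 5.19 FPKM in WT. Sema4g and Sema6c, both transmembrane semaphorins, followed at 49.2 ± 2.12 and 51.6 ± 2.21 FPKM in cKO and at 53.2 ± 1.78 and 52.0 ± 6.24 FPKM in WT. Neighbours in this order overlapped in their WT libraries, except Efnb3, with 56.0 FPKM at the lowest, and Sema4g, with 55.7 FPKM at the highest. The ephrin-A gene with the lowest level, Efna1, had 1.65 ± 0.178 FPKM in cKO and 1.53 ± 0.213 FPKM in WT. Slit1 stood at 15.7 ± 1.23 FPKM in cKO and 14.5 ± 0.969 FPKM in WT, above Slit2 at 3.42 ± 0.715 FPKM in cKO and 2.93 ± 0.473 FPKM in WT, and Slit3 stayed under 1 FPKM. The netrins were low throughout: Ntn3 had 3.11 ± 0.288 FPKM in cKO and 3.35 ± 0.110 FPKM in WT, and Ntn4, a netrin related to laminin chains, had 2.88 ± 0.0930 FPKM in cKO and 2.75 ± 0.114 FPKM in WT.

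Among the receptors, plexins and Robo genes led. Plxna2, a plexin for secreted and transmembrane semaphorins, averaged 47.6 ± 8.44 FPKM in cKO and 67.3 ± 18.9 FPKM in WT. Plxna3, a partner of Nrp2 in Sema3f signalling, averaged 52.3 ± 5.85 FPKM in cKO and 53.9 ± 9.04 FPKM in WT. The Slit receptors Robo2 and Robo1 averaged 50.6 ± 8.52 and 46.8 ± 6.35 FPKM in cKO and 53.6 ± 5.90 and 51.7 ± 3.02 FPKM in WT. Epha4, which can bind ephrins of both the A and the B class, averaged 32.8 ± 5.83 FPKM in cKO and 38.0 ± 5.55 FPKM in WT, close to Epha5 at 37.5 ± 6.04 FPKM in cKO and 33.6 ± 4.79 FPKM in WT. Dcc, the netrin-1 receptor for attraction, and Unc5a, one of the repulsive netrin receptors, lay within a library SD of each other at 11.7 ± 1.57 and 11.1 ± 1.15 FPKM in cKO and 12.1 ± 1.20 and 11.0 ± 0.592 FPKM in WT. Unc5b was the lowest of that family at 1.95 ± 0.232 FPKM in cKO and 1.94 ± 0.112 FPKM in WT. Nrp1, the neuropilin for Sema3a, averaged 11.6 ± 2.07 FPKM in cKO and 13.1 ± 3.26 FPKM in WT.

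**Figure D1:**
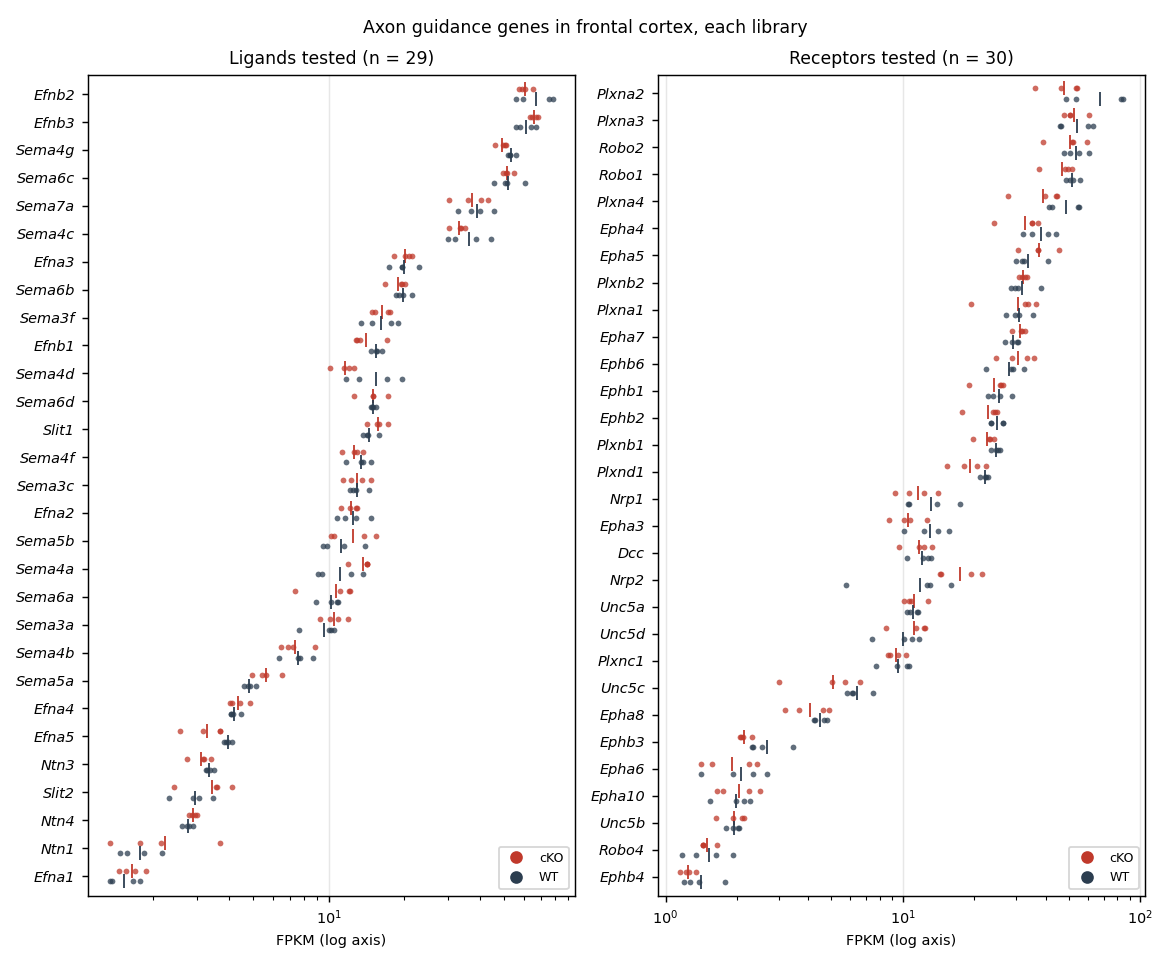
FPKM on a log axis of the 29 ligands and 30 receptors tested, with a dot for each library and a vertical mark for the mean, cKO above WT in each row, ordered by the WT mean. The highest WT means are those of Plxna2 and Efnb2, and in most rows the cKO and WT dots overlap.

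The comparison of cKO with WT asks whether guidance genes change when Auts2 is lost from the Emx1 lineage. None of the 59 genes tested was called higher and none lower by limma at an adjusted p of 0.05, with a background of 0.00782% of 12786 genes called higher and 0.0156% called lower. At an unadjusted p under 0.05, 5 of the 59 passed, against a background of 7.91% of all genes tested: Nrp2 and Sema4a with positive log2 fold changes, and Sema4d, Plxna2 and Plxna4 with negative ones. The lowest adjusted p among the guidance genes was 0.628. The median log2 fold change was -0.03 over the 59 genes, -0.01 over the 29 ligands, of which 14 were positive, and -0.07 over the 30 receptors, of which 9 were positive, against 0.0013 over all genes tested. In bulk tissue fewer cells of a type and less RNA per cell cannot be told apart.

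The 4 genes at either end of the test statistics follow library by library, as values and not as calls. Nrp2, the neuropilin that binds Sema3f and is carried by migrating interneurons (GRCm38, chr1:62703285-62818695), had 21.4, 14.3, 14.4 and 19.3 FPKM in cKO libraries 1 to 4, against 15.9, 5.78, 13.0 and 12.6 FPKM in WT libraries 1 to 4. The groups overlapped, and WT 2 lay far below the other 7 libraries. The log2 fold change was 0.58 ± 0.23 (SE, adjusted p = 0.628), and 0.30 without WT 2. Nrp2 was highest in cKO 1 and cKO 4, which also had the highest interneuron marker sums, 407 and 322 FPKM, and the part of these markers in the value was not tested.

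Sema4a, a transmembrane semaphorin, had 11.95, 14.3, 14.2 and 14.2 FPKM in cKO, against 9.06, 9.43, 12.3 and 13.7 FPKM in WT. WT 1 and WT 2 were the lowest of the 8 libraries and WT 3 and WT 4 lay within the cKO range. Its log2 fold change of 0.29 ± 0.12 (adjusted p = 0.628) came to 0.03 over protein-coding transcripts alone. Sema5a, a semaphorin with thrombospondin repeats, had 4.95, 5.40, 5.61 and 6.53 FPKM in cKO, against 4.59, 4.85, 4.76 and 5.14 FPKM in WT, a log2 fold change of 0.18 ± 0.10 (adjusted p = 0.641), and WT 4 lay above cKO 1. Efnb3 had 67.9, 64.5, 63.4 and 67.0 FPKM in cKO, against 58.0, 56.0, 67.2 and 63.9 FPKM in WT, with a log2 fold change of 0.10 ± 0.07 (adjusted p = 0.657), and WT 3 and WT 4 fell within the cKO range.

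On the lower side, Plxna2 had 36.1, 54.1, 53.8 and 46.2 FPKM in cKO, against 82.5, 84.5, 53.4 and 48.7 FPKM in WT. Only WT 1 and WT 2 stood clear of the cKO libraries, while WT 3 and WT 4 lay within their range. The log2 fold change was -0.47 ± 0.18 (adjusted p = 0.628), and -0.12 with WT 1 and WT 2 both left out. Plxna4, the plexin most used with Nrp1 for Sema3a, had 27.8, 44.7, 43.9 and 39.5 FPKM in cKO, against 54.6, 55.0, 42.6 and 41.4 FPKM in WT, a log2 fold change of -0.32 ± 0.14 (adjusted p = 0.628), or -0.13 without WT 1 and WT 2. Sema4d, the ligand of plexin-B1, had 10.1, 12.7, 12.1 and 11.5 FPKM in cKO, against 17.1, 19.5, 11.7 and 13.2 FPKM in WT, a log2 fold change of -0.36 ± 0.14 (adjusted p = 0.628), or -0.10 without these libraries. In all 3 genes the same pair of WT libraries was highest. Plxnd1, the receptor of Sema3e, had 15.3, 18.1, 20.5 and 22.4 FPKM in cKO, against 22.8, 22.4, 21.1 and 22.1 FPKM in WT, a log2 fold change of -0.21 ± 0.10 (adjusted p = 0.641), with cKO 4 inside the WT range.

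**Figure D2:**
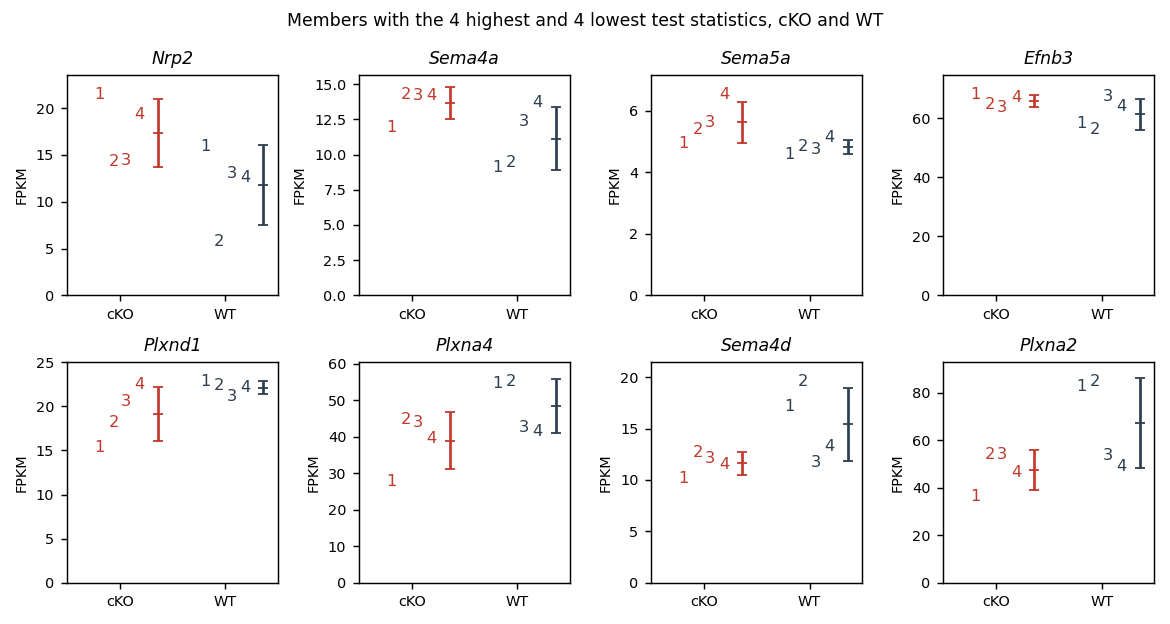
FPKM of the 8 genes with the 4 highest and 4 lowest test statistics, on axes from 0, with each library shown as its number at its value and the bar giving the mean ± SD (n = 4), cKO left of WT. In Plxna2, Plxna4 and Sema4d the numerals 1 and 2 stand apart at the top of the WT group, and in Nrp2 the WT numeral 2 stands apart at the bottom.

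The lower median of the receptors changed with the libraries and settings used. Library cKO 1 was the lowest of the 8 libraries for 17 of the 30 receptors and 10 of the 29 ligands, while WT 2 was the highest for 11 receptors. The 34 receptors summed to 513, 671, 672 and 636 FPKM in cKO libraries 1 to 4, against 677, 701, 648 and 643 FPKM in WT. The 35 ligands summed to 516, 545, 529 and 535 FPKM in cKO, against 541, 559, 541 and 523 FPKM in WT. Without cKO 1 the receptor median was 0.0037, with 17 of 30 positive, and with WT 1 and WT 2 left out it was -0.06, with 11 of 30 positive. Without WT 2 alone it was -0.05, with 8 of 30 positive. Since cKO 1 was picked as the lowest library, leaving it out tends to raise the median, and its part was not tested. The fold changes also ran with transcript length, with a Spearman correlation of -0.296 over all 12786 genes and -0.14 over the 59 members, a description across genes that share the same libraries. With the length trend removed the receptor median was -0.04, with 14 of 30 positive.

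Other genes of the guidance pathways, a list of 78 co-receptors, modulators and intracellular effectors, gave no call either. Of 76 tested, 0 were called and 9 had an unadjusted p under 0.05, against 7.91% of all genes, with a median log2 fold change of -0.01. Rgs3, which couples B-type ephrins to G protein regulation, had 6.52, 5.33, 6.48 and 5.59 FPKM in cKO, against 2.94, 3.55, 4.48 and 4.49 FPKM in WT, and its groups did not overlap (log2 fold change 0.53 ± 0.12, adjusted p = 0.517). Cntn2, the axonal adhesion protein TAG-1, had 74.3, 80.5, 84.0 and 85.5 FPKM in cKO, against 112, 121, 97.7 and 83.7 FPKM in WT, with WT 4 inside the cKO range (log2 fold change -0.34 ± 0.10, adjusted p = 0.628). Next by fold change were Dpysl4 at 0.28 and Vasp at 0.26, and on the lower side Flrt2 at -0.33 and Cdon at -0.30.

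The pull-down asks which transcripts are more abundant in the AUTS2 RIP than in the IgG control or in the Input of the same tissue. Both comparisons use the same 2 RIP libraries, so they are not independent of each other, and with 2 libraries a group the tests borrow their spread from all genes. Against IgG, 62 of the 69 genes were tested, of which 12 were called higher (background 13.7% of 14570 genes) and 4 lower (background 9.69%). Against Input, 64 were tested, of which 19 were called higher (background 19.3% of 14458 genes) and 3 lower (background 16.6%). By role, 9 of 31 receptors and 3 of 31 ligands were called higher against IgG, and 2 of each lower. Against Input 12 of 31 receptors and 7 of 33 ligands were higher, with 1 receptor and 2 ligands lower. The median log2 fold change of the receptors was 0.10 against IgG and 0.59 against Input, that of the ligands -0.11 and 0.12, and that of all genes tested 0.02 and -0.02. Single libraries weighed on these counts. Leaving out a single library lowered the counts of calls, among guidance genes and among all genes alike. Against IgG the receptor median was then 0.06 without RIP A, 0.16 without RIP B, 0.15 without IgG A and 0.06 without IgG B. The ligand medians were -0.07, -0.01, -0.07 and -0.11 in the same order. Against Input the receptor median was 0.53 without RIP A and 0.51 without RIP B, and the ligand median 0.08 and 0.23.

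Auts2 mRNA had 275 and 275 FPKM in the RIP libraries, against 234 and 239 FPKM in the IgG libraries (log2 fold change 0.21, adjusted p = 0.133), and in the table with Input 279.5 and 279 FPKM in RIP, against 139 and 184 FPKM in Input (0.80, adjusted p = 0.00880). Of the marker lists, Cajal-Retzius genes summed to 181 and 165 FPKM in RIP, against 102 and 86.5 FPKM in IgG, and the oligodendrocyte lineage to 91.8 and 82.0 FPKM in RIP, against 65.1 and 61.9 FPKM in IgG. Called higher against IgG were 1 of 3 Cajal-Retzius and 1 of 5 oligodendrocyte lineage markers tested (background 13.7%), and 0 were lower (background 9.69%). In the table with Input, the radial glia list summed to 247 to 263 FPKM in RIP, against 371 to 405 FPKM in Input. Its 7 markers did not move together: the median log2 fold change was 0.22, with 1 called lower (background 16.6%) and 0 higher. The red blood cell list summed to 19.1 to 39.3 FPKM in RIP, against 67.0 to 77.3 FPKM in Input. There Cajal-Retzius genes summed to 167 to 184 FPKM in RIP, against 76.9 to 80.4 FPKM in Input, with 1 of 3 tested called higher and 0 lower. The oligodendrocyte lineage summed to 83.2 to 93.5 FPKM in RIP, against 53.7 to 61.5 FPKM in Input, with 4 of 5 called higher and 1 lower. Excitatory neuron markers summed to 534 to 575 FPKM in RIP, against 485 to 497 FPKM in Input, with 3 of 9 called higher and 2 lower. The background against Input was 19.3% higher and 16.6% lower. Against IgG the excitatory sums were 524 to 566 FPKM in RIP, against 518 to 525 FPKM in IgG. Microglia markers summed to 12.2 to 13.8 FPKM in RIP, against 16.9 to 22.1 FPKM in IgG, and to 12.4 to 14.1 FPKM in RIP, against 16.7 to 22.5 FPKM in Input. Their part in the values below was not tested.

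All 8 plexins tested had a positive log2 fold change in both comparisons. Of them 7 were called higher against IgG (background 13.7%) and 8 against Input (background 19.3%), and the median was 0.64 against IgG and 1.09 against Input. Plexins are large single-pass receptors whose cytoplasmic part holds a GTPase-activating domain. Plxnb1, the Sema4d receptor (chr9:109095389-109119917), had 54.0 and 49.8 FPKM in RIP, against 20.2 and 24.6 FPKM in IgG, a log2 fold change of 1.184 ± 0.141 (adjusted p = 0.00420, limma as throughout). Plxna3 (chrX:74329066-74344689) had 49.0 and 46.6 FPKM in RIP, against 21.3 and 20.5 FPKM in IgG, a log2 fold change of 1.15 ± 0.12 (adjusted p = 0.00327). Both RIP libraries lay above both IgG libraries by more than the gap between replicates.

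Against Input, Plxna3 had 49.9 and 47.3 FPKM in RIP, against 15.4 and 11.6 FPKM in Input, a log2 fold change of 1.79 ± 0.17 (adjusted p = 0.00133). Plxnb2, a plexin of neural progenitors that binds Sema4 ligands (chr15:89155549-89180788), had 115 and 99.9 FPKM in RIP, against 42.5 and 37.4 FPKM in Input (1.40 ± 0.12, adjusted p = 0.00120), and 113 and 98.4 FPKM in RIP, against 59.4 and 53.5 FPKM in IgG (0.89 ± 0.12, adjusted p = 0.00568). For both genes the gap between the groups was larger than that between replicates.

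The plexins with the smallest differences were A-type. Plxna4 had 87.3 and 75.7 FPKM in RIP, against 67.7 and 73.1 FPKM in IgG, a log2 fold change of 0.21 ± 0.12 that was not called (adjusted p = 0.256), and 88.9 and 76.9 FPKM in RIP, against 52.3 and 53.0 FPKM in Input, which was called (0.64 ± 0.11, adjusted p = 0.00829). Plxna2 had 106 and 104 FPKM in RIP, against 82.0 and 79.4 FPKM in IgG (0.37 ± 0.10, adjusted p = 0.0397). Plxna1, the most abundant plexin here and a co-receptor of the neuropilins, had 205 and 189 FPKM in RIP, against 116 and 128 FPKM in Input (0.69 ± 0.10, adjusted p = 0.00437), and 202 and 186 FPKM in RIP, against 150.2 and 121 FPKM in IgG (0.52 ± 0.13, adjusted p = 0.0354). The remaining called plexins were Plxnc1, the receptor of Sema7a, with log2 fold changes of 0.55 against IgG and 0.91 against Input, and Plxnd1, with 0.73 against IgG and 1.31 against Input, both named because they were called. The receptors other than plexins had a median of -0.02 against IgG, with 11 of 23 positive, 2 called higher (background 13.7%) and 2 lower (background 9.69%). Against Input their median was 0.26, with 19 of 23 positive, 4 called higher (background 19.3%) and 1 lower (background 16.6%). Families were not tested against each other.

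**Figure D3:**
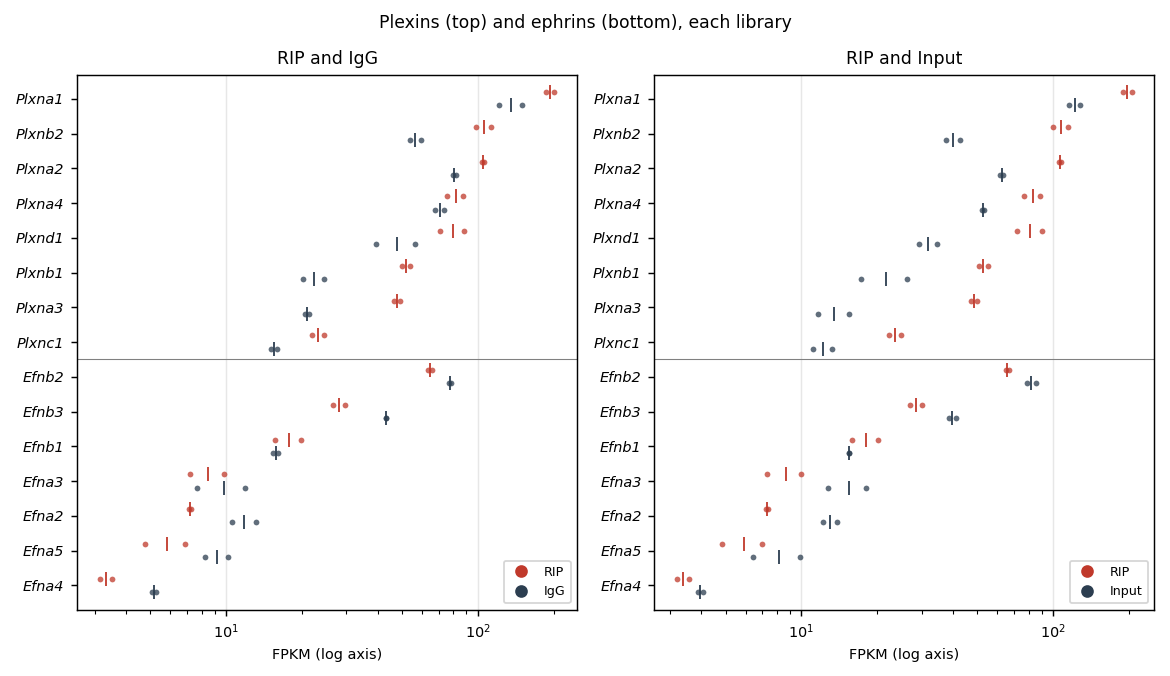
FPKM on a log axis of 8 plexins and 7 ephrins in the RIP and IgG libraries and in the RIP and Input libraries, with a dot for each library and a vertical mark for the mean, RIP above its comparator in each row. Every plexin mean shown lies to the right in RIP, and every ephrin mean shown but that of Efnb1 lies to the left. Plxnb3 and Efna1 are not drawn. Efna1, not tested against IgG, averaged 0.852 FPKM in RIP and 0.657 FPKM in IgG, and 0.866 FPKM in RIP and 1.70 FPKM in Input.

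The plexin calls depended in part on how length and composition were treated. The most abundant transcripts of the tested plexins had a median length of 7975.5 bases, against 3183 bases for the ephrins tested against IgG, and log2 fold changes ran with length at a Spearman correlation of 0.214 against IgG and 0.301 against Input over all genes. With trends on length and GC content removed, 3 of 8 plexins were called higher against IgG (Plxna3, Plxnb1 and Plxnb2), beside 1509 of all 14570 genes. Against Input 4 were called higher (Plxna3, Plxnb2, Plxnc1 and Plxnd1), beside 2182 of all 14458 genes. The plexin medians were then 0.28 against IgG and 0.47 against Input. Plxna1 then stood at -0.04 against IgG and -0.16 against Input, Plxna2 at -0.07 against IgG, and Plxna4 at -0.14 against Input. Quantile normalization left 3 plexins called against IgG, with Plxna2 at -0.01, and gave a split over all guidance genes of 7 higher and 11 lower against IgG, in place of 12 and 4, and of 16 higher and 5 lower against Input, in place of 19 and 3. Over all genes quantile normalization called 1367 of 14570 higher and 1349 lower against IgG, and 2562 of 14458 higher and 2277 lower against Input. With length and GC trends removed, 6 guidance genes were higher and 9 lower against IgG, beside 1509 higher and 1068 lower of all 14570 genes.

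The semaphorins were mixed. Against IgG 2 of 18 were called higher (background 13.7%) and 1 lower (background 9.69%), with a median of -0.11. Against Input 5 of 19 were higher (background 19.3%) and 0 lower (background 16.6%), with a median of 0.21. Sema4g (chr19:44989101-45003397) had 90.5 and 85.9 FPKM in RIP, against 43.4 and 44.0 FPKM in IgG (1.00 ± 0.10, adjusted p = 0.00334), and 92.1 and 87.2 FPKM in RIP, against 32.6 and 30.5 FPKM in Input (1.48 ± 0.10, adjusted p = 0.000808). The gap between the groups was larger than that between replicates in both tables. Sema3f, the secreted ligand of Nrp2 and plexin-A3, had 46.2 and 37.2 FPKM in RIP, against 29.7 and 22.5 FPKM in IgG (0.66 ± 0.18, adjusted p = 0.0450), and 47.0 and 37.8 FPKM in RIP, against 13.5 and 15.7 FPKM in Input (1.48 ± 0.16, adjusted p = 0.00206).

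Sema3c, a secreted semaphorin that acts on callosal axons through Nrp1, had 20.7 and 12.9 FPKM in RIP, against 29.8 and 26.1 FPKM in IgG (-0.74 ± 0.23, adjusted p = 0.0651, or 0.0240 with the trio as a block), and 21.1 and 13.1 FPKM in RIP, against 39.7 and 21.2 FPKM in Input (-0.77 ± 0.34, adjusted p = 0.130, or 0.00992 with the block). The A library exceeded the B library in all 3 groups. Protein-coding transcripts gave 69.0% of Sema3c in RIP, against 28.9% in Input, and over these alone the log2 fold change against Input was 0.41. Sema5a had 4.42 and 3.77 FPKM in RIP, against 6.78 and 6.28 FPKM in IgG (-0.57 ± 0.22, adjusted p = 0.110), and 4.50 and 3.82 FPKM in RIP, against 6.75 and 7.32 FPKM in Input (-0.64 ± 0.21, adjusted p = 0.0568, or 0.0451 over protein-coding transcripts alone). Sema6a, a ligand of plexin-A2 and plexin-A4, was the semaphorin called lower against IgG, with 53.3 and 52.9 FPKM in RIP, against 68.6 and 75.7 FPKM in IgG (-0.43 ± 0.11, adjusted p = 0.0353), while against Input it was not called (0.08 ± 0.10, adjusted p = 0.559). 

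Sema4a, Sema6b and Sema6c were called higher against Input and not against IgG, and the difference between the comparisons was not tested. Against IgG Sema4a stood at 0.11 ± 0.14 (adjusted p = 0.617), with overlapping libraries. Sema6b stood there at 0.275 ± 0.160 (adjusted p = 0.261) and Sema6c at 0.34 ± 0.12 (adjusted p = 0.0820). Sema6c had 44.5 and 44.7 FPKM in RIP, against 25.2 and 19.2 FPKM in Input (0.99 ± 0.16, adjusted p = 0.00615), and 23.0% of it in RIP, against 19.1% in Input, came from protein-coding transcripts, its most abundant transcript being a noncoding one of 450 bases. Sema4a had 24.6 and 21.0 FPKM in RIP, against 15.0 and 8.95 FPKM in Input (0.91 ± 0.25, adjusted p = 0.0368), which over protein-coding transcripts alone came to 0.47 and lost its call (adjusted p = 0.0898). Sema6b stood at 0.58 ± 0.16 against Input (adjusted p = 0.0385) and at -0.01 with length and GC trends removed. These 3 are named because they were called. The other semaphorins tested lay between -0.42 (Sema4c) and 0.59 (Sema4b) against IgG and between -0.35 (Sema3b) and 0.67 (Sema5b) against Input.

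All 3 Slits had positive values, with medians of 0.34 against IgG and 1.17 against Input, and Slit1 had the largest difference of any guidance gene against IgG. Slit1, a secreted repellent for Robo-bearing axons (chr19:41600257-41743665), had 60.7 and 55.3 FPKM in RIP, against 21.1 and 22.2 FPKM in IgG (1.38 ± 0.12, adjusted p = 0.00264), and 61.8 and 56.1 FPKM in RIP, against 16.7 and 16.7 FPKM in Input (1.76 ± 0.12, adjusted p = 0.000765). With length and GC trends removed it stayed called in both. Slit3 was called against Input, with 11.0 and 11.4 FPKM in RIP, against 4.65 and 4.22 FPKM in Input (1.17 ± 0.18, adjusted p = 0.00602, or 0.0566 over protein-coding transcripts alone), but its IgG values of 14.7 and 5.93 FPKM lay on both sides of its RIP values of 10.8 and 11.2 FPKM (0.21 ± 0.37, adjusted p = 0.725). Slit2 was called in neither, at 0.34 ± 0.17 against IgG and 0.53 ± 0.23 against Input.

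Netrins gave no call. Ntn1, the netrin-1 gene, had 7.78 and 9.71 FPKM in RIP, against 7.21 and 7.98 FPKM in IgG (0.18 ± 0.20, adjusted p = 0.571), and 7.92 and 9.86 FPKM in RIP, against 9.09 and 4.89 FPKM in Input (0.35 ± 0.30, adjusted p = 0.395). Ntn4 stood at -0.30 ± 0.32 against IgG and -0.52 ± 0.22 against Input, neither called, and Ntn5 was listed at 0 in every pull-down library.

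Ephrins ran the other way from plexins. Against IgG 6 of 7 had a negative log2 fold change, with a median of -0.51 and 1 called lower (background 9.69%). Against Input 7 of 8 were negative, with a median of -0.43 and 2 called lower (background 16.6%). Efnb3 (chr11:69554092-69560205) had 29.7 and 26.6 FPKM in RIP, against 43.0 and 43.1 FPKM in IgG (-0.60 ± 0.12, adjusted p = 0.0190), and 30.2 and 27.0 FPKM in RIP, against 41.0 and 38.4 FPKM in Input (-0.46 ± 0.12, adjusted p = 0.0328). The RIP libraries were below the others in both tables. Efna2, a glycolipid-anchored ephrin of topographic maps, had 7.09 and 7.25 FPKM in RIP, against 13.1 and 10.6 FPKM in IgG, which missed the threshold (-0.64 ± 0.19, adjusted p = 0.0578, or 0.0400 over protein-coding transcripts alone), and 7.22 and 7.36 FPKM in RIP, against 12.2 and 13.8 FPKM in Input, which passed it (-0.76 ± 0.17, adjusted p = 0.0199).

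Efna3 had 7.30 and 9.99 FPKM in RIP, against 12.7 and 18.1 FPKM in Input (-0.76 ± 0.24, adjusted p = 0.0537, or 0.0221 with the trio as a block), and 7.17 and 9.84 FPKM in RIP, against 7.69 and 11.9 FPKM in IgG, where the groups overlapped (-0.17 ± 0.27, adjusted p = 0.679). Efnb1 was the ephrin on the positive side, at 0.15 ± 0.17 against IgG and 0.20 ± 0.17 against Input, neither called. Efna4 stood at -0.51 ± 0.23 against IgG and -0.18 ± 0.23 against Input, also not called. With length and GC trends removed the ephrin medians were -0.54 in both comparisons and no ephrin was positive.

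Neuropilins gave no call and Robo genes 1. Nrp2 had 53.7 and 48.6 FPKM in RIP, against 68.8 and 57.7 FPKM in IgG (-0.30 ± 0.13, adjusted p = 0.154), and 54.7 and 49.4 FPKM in RIP, against 40.8 and 43.1 FPKM in Input (0.30 ± 0.11, adjusted p = 0.0851). Its RIP libraries lay below both IgG libraries and above both Input libraries. Nrp1 stood at -0.07 ± 0.11 against IgG and 0.09 ± 0.12 against Input, neither called. Robo2 had 103 and 97.0 FPKM in RIP, against 111 and 102 FPKM in Input (-0.10 ± 0.10, adjusted p = 0.477). Robo1 was the Robo gene called, against Input, with 79.9 and 88.0 FPKM in RIP, against 55.3 and 53.2 FPKM in Input (0.62 ± 0.10, adjusted p = 0.00720), and missed the threshold against IgG (adjusted p = 0.0516, or 0.0394 over protein-coding transcripts alone). Robo3, the Robo of commissural neurons, was low, at 1.60 and 1.94 FPKM in RIP, against 0.518 and 1.05 FPKM in IgG, and Robo4, an endothelial Robo, at 0.974 and 1.54 FPKM in RIP, against 1.33 and 1.72 FPKM in IgG, and neither was called. Against Input Robo3 stood at 0.92 ± 0.36 (adjusted p = 0.0968).

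The netrin receptors split. Unc5d, a receptor of migrating upper-layer neurons that also binds Flrt2, had 15.0 and 13.8 FPKM in RIP, against 24.9 and 26.1 FPKM in IgG (-0.78 ± 0.14, adjusted p = 0.0128), and 15.3 and 14.1 FPKM in RIP, against 21.4 and 20.2 FPKM in Input (-0.48 ± 0.14, adjusted p = 0.0459, or 0.0604 with the trio as a block). Unc5c had 10.3 and 9.35 FPKM in RIP, against 17.0 and 14.7 FPKM in IgG (-0.64 ± 0.17, adjusted p = 0.0415), which over protein-coding transcripts alone came to -0.18 (adjusted p = 0.519), and it was not called against Input (-0.31 ± 0.16, adjusted p = 0.188). Unc5a went the other way, with 24.2 and 22.5 FPKM in RIP, against 9.75 and 11.7 FPKM in Input (1.06 ± 0.16, adjusted p = 0.00522), and 23.8 and 22.2 FPKM in RIP, against 14.3 and 19.2 FPKM in IgG, not called (0.45 ± 0.18, adjusted p = 0.118). Dcc had 29.6 and 28.4 FPKM in RIP, against 35.0 and 26.7 FPKM in IgG, with overlap and no call (-0.07 ± 0.16, adjusted p = 0.780), and Unc5b was not called either, at 0.71 ± 0.28 against Input (adjusted p = 0.0984).

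Of the 12 Eph receptors tested, 2 were called higher in each comparison and 0 lower. The background was 13.7% higher and 9.69% lower against IgG, and 19.3% higher and 16.6% lower against Input. Ephb6, an Eph receptor whose kinase domain is inactive, had 41.4 and 41.5 FPKM in RIP, against 22.5 and 21.2 FPKM in IgG (0.89 ± 0.12, adjusted p = 0.00568), and 42.1 and 42.1 FPKM in RIP, against 16.7 and 26.3 FPKM in Input (0.97 ± 0.22, adjusted p = 0.0182). Epha8 had 11.5 and 11.4 FPKM in RIP, against 5.50 and 5.91 FPKM in IgG (0.89 ± 0.18, adjusted p = 0.0197), and 11.7 and 11.6 FPKM in RIP, against 4.32 and 5.19 FPKM in Input (1.14 ± 0.19, adjusted p = 0.00713). With length and GC trends removed Ephb6 stayed called against IgG, Epha8 did not, and neither was called against Input. Epha3 had 18.0 and 17.8 FPKM in RIP, against 22.8 and 28.0 FPKM in IgG (-0.48 ± 0.15, adjusted p = 0.0709, or 0.0498 over protein-coding transcripts alone), and 18.3 and 18.0 FPKM in RIP, against 23.2 and 22.0 FPKM in Input (-0.30 ± 0.13, adjusted p = 0.131), the lowest Eph value there. Epha5 had 111 and 109 FPKM in RIP, against 143 and 134 FPKM in IgG (-0.32 ± 0.10, adjusted p = 0.0597, or 0.0393 over protein-coding transcripts alone), and 113 and 111 FPKM in RIP, against 103 and 103 FPKM in Input (0.12 ± 0.09, adjusted p = 0.310). Its RIP libraries lay below both IgG libraries and above both Input libraries. Of its FPKM 48.9% in RIP and 52.1% in IgG came from protein-coding transcripts, the most abundant being a retained-intron transcript of 2246 bases. The other 8 Eph genes tested lay between -0.14 (Ephb1) and 0.45 (Epha10) against IgG and between 0.19 (Ephb4) and 0.69 (Epha10) against Input.

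**Figure D4:**
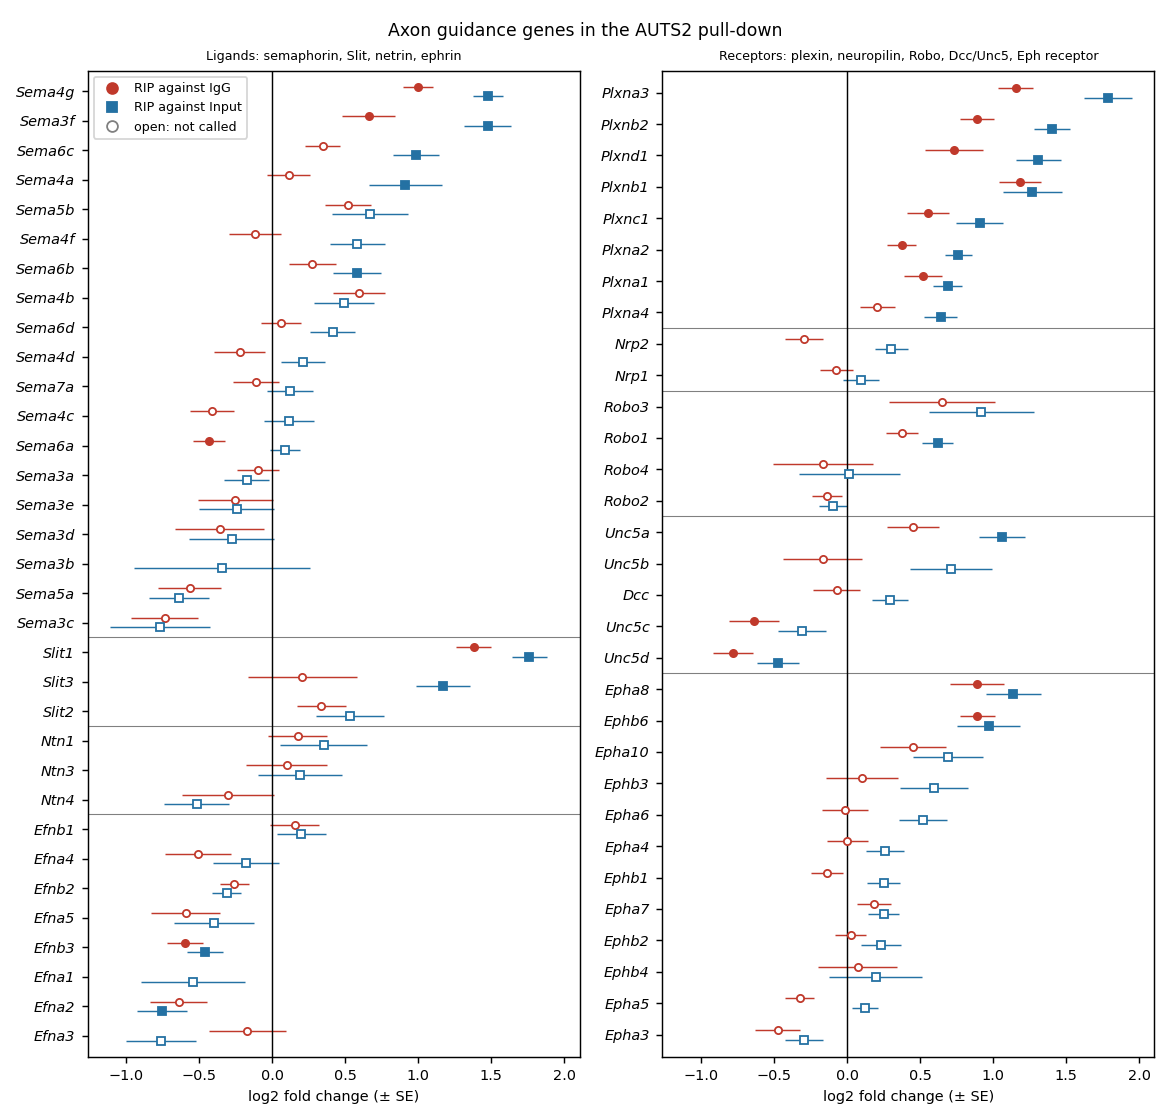
Log2 fold change ± SE of every guidance gene tested, ligands on the left and receptors on the right, with circles for RIP against IgG, squares for RIP against Input, and filled symbols for calls at an adjusted p of 0.05. The 8 plexins at the top right all lie above 0, and the ephrins at the bottom left lie below 0 but for Efnb1.

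Base composition ran with the pull-down values. Across the guidance genes the log2 fold change had a Spearman correlation with the GC content of the most abundant transcript of 0.488 against IgG (n = 62) and 0.465 against Input (n = 64), and 0.30 and 0.328 across all genes tested, as descriptions over genes measured in the same libraries. The 12 genes called higher against IgG had a median GC content of 57.47%, and the 4 called lower 47.54%, though Efnb3 among these had 57.7%. Against Input no such split was seen. There the 19 called higher had a median of 57.35%, the 3 called lower 57.65% and the 42 not called 51.89%. Ephrins had a median GC content of 56.85% and plexins one of 56.16%. The Unc5 genes called lower had transcripts of 9220 bases (Unc5d) and 9646 bases (Unc5c), longer than the plexin median. Of the 69 genes, 31 have an annotated gene on the opposite strand, Plxna1, Plxna4 and Plxnb1 among them, and since the strand setting of the quantification is not given, reads of the pair could not be told apart.

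**Figure D5:**
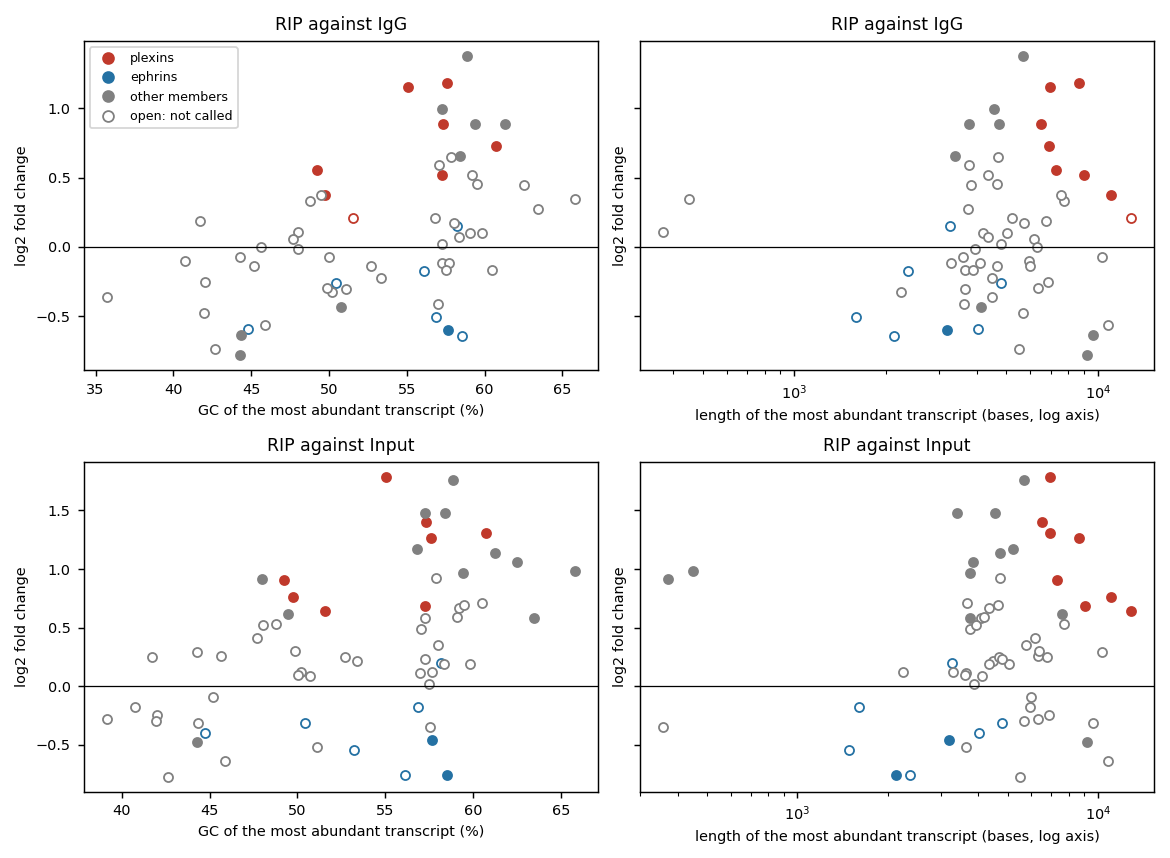
Log2 fold change against the GC content (%) and the length (bases, log axis) of the most abundant transcript, for RIP against IgG above and RIP against Input below, with plexins in red, ephrins in blue, other guidance genes in grey and calls filled. Plexins lie at 6497 bases or longer and above 0, and ephrins at 4793 bases or shorter and below 0 but for Efnb1.

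Of the same 78 pathway partners, 77 were tested in each comparison. Against IgG 26 were called higher (background 13.7%) and 8 lower (background 9.69%), with a median of 0.25. Against Input 36 were higher (background 19.3%) and 8 lower (background 16.6%), with a median of 0.45. These counts are from the main run alone, with no length or GC trend removed, and the part of length and GC content in them was not tested. Mical2, an oxidoreductase of the MICAL family that disassembles actin, had 52.6 and 54.5 FPKM in RIP, against 20.6 and 21.0 FPKM in IgG (1.32 ± 0.12, adjusted p = 0.00260). Trio, a large signalling protein downstream of Dcc, had 124 and 109 FPKM in RIP, against 48.6 and 48.7 FPKM in IgG (1.24 ± 0.11, adjusted p = 0.00270). Mical3 had 188 and 182 FPKM in RIP, against 55.5 and 61.2 FPKM in Input (1.65 ± 0.10, adjusted p = 0.000700). Grip2, an adaptor protein that binds ephrin-B ligands, stood at 1.28 ± 0.15 against IgG (adjusted p = 0.00390) and 1.66 ± 0.14 against Input (adjusted p = 0.00110), and Mical2 at 1.60 ± 0.12 against Input. On the lower side, Gsk3b, a kinase of many signalling routes, had 22.6 and 25.3 FPKM in RIP, against 63.4 and 62.7 FPKM in IgG (-1.36 ± 0.12, adjusted p = 0.00260). Flrt2, a ligand of Unc5d, had 12.7 and 14.5 FPKM in RIP, against 25.5 and 25.1 FPKM in IgG (-0.85 ± 0.15, adjusted p = 0.0110), and 12.9 and 14.7 FPKM in RIP, against 28.5 and 33.1 FPKM in Input (-1.10 ± 0.15, adjusted p = 0.00400). Cxcr4, a chemokine receptor, stood at -0.89 ± 0.21 against IgG (adjusted p = 0.0307) and was not called against Input (-0.39 ± 0.23, adjusted p = 0.229). Its ligand gene Cxcl12 stood at -1.11 ± 0.31 against Input (adjusted p = 0.0360) and was not called against IgG (-0.52 ± 0.32, adjusted p = 0.284). Cxcl12 was low, at 1.56 and 3.06 FPKM in RIP in the table with IgG. Ndfip1, an adaptor of ubiquitin ligases, stood at -1.22 ± 0.14 against Input (adjusted p = 0.00220) and was not called against IgG (-0.38 ± 0.15, adjusted p = 0.108).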

How the data were processed

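The deposited tables give FPKM per transcript, computed by the authors with Cuffdiff 2.2.1 after STAR 2.5 and SAMtools on GRCm38.p4/mm10, per the submitters' processing notes. For the strand setting of the counting, no source used here gives one. FPKM of transcripts were summed per gene symbol, and 0 columns of values stayed unmapped to a sample. The tables were scaled separately, so tests stayed within a table. FPKM fixes no read depth, and Cuffdiff shares reads among transcripts and related genes, so values of single transcripts are less certain than sums.

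Genes averaging 1 FPKM or more over a comparison were tested as log2(FPKM + 1) with limma 3.58.1 (R 4.3.3, trend and robust, two-sided), with Benjamini-Hochberg adjustment over all genes tested at 0.05. All fold changes stand on this log2 scale, which understates changes of low genes. Nothing says that the frontal cortex replicates came from separate litters, so p-values measure the spread between these samples. The method was tested on simulated data first. Tables were made with pandas 2.3.3 and figures with matplotlib 3.10.9.

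Named were, by class, the 2 highest and the lowest WT levels, the 4 highest and 4 lowest test statistics in cKO against WT, and the 2 highest and 2 lowest fold changes in each pull-down comparison (1 and 1 in classes under 5 genes), with the 3 pathway genes of highest and of lowest fold change. Members and lists were chosen with earlier results of these data known. RIP, IgG and Input of a letter were split from the same pool, per the series text, so the letters pair them, although their deviations correlated weakly (0.00879 for IgG and 0.012 for Input). Alternatives were other pseudocounts, filters, scalings, limma settings, protein-coding transcripts only, length and GC trends removed (lowess, span 0.3), a replicate block and leaving out libraries. The GC trend and the joint omission of WT 1 and WT 2 were added after the data were seen.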

Additional observations from a re-analysis of the deposited data

Results flagged for a closer look

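Of 62 groups of 4 libraries of the guidance genes checked for a library far from the other 3 (by Dixon's gap-to-range criterion), 3 stood out, where chance gives about 1 in 20. All were in cKO library 1. Epha4 had 24.2 FPKM there, in a group of 24.2, 35.0, 37.1 and 35.0 FPKM (gap 0.838). Sema4a had 11.95 FPKM there, in a group whose other libraries had 14.3, 14.2 and 14.2 FPKM (gap 0.964). Ntn5 had 0.0307 FPKM there and was listed at 0 in the other cKO libraries. That fixes its gap at 1 for any value above 0, so this flag does not mark the library. Without cKO 1 the log2 fold change of Sema4a was 0.35 and no guidance gene was called.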

How the results depend on the processing

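In cKO against WT no guidance gene was called under any alternative run, and between 0 and 8 had an unadjusted p under 0.05. The replicate numbers share only a number there (deviations correlated at 0.176, 0.0173, -0.0394 and 0.0659), and with the replicate block 0 were called, 6 at an unadjusted p under 0.05. In the pull-down the replicate block by trio gave 12 higher and 5 lower against IgG, and 19 and 4 against Input, and beyond Sema3c, Efna3 and Unc5d it changed no other call.

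Counts over all genes tested stand in brackets. Against IgG the 12 higher (1994 of 14570) became 7 with no filter (1425 of 27030) and 7 with quantile normalization (1367 of 14570). They became 7 without trend and robust (942 of 14570), 7 with the GC trend removed (1657 of 14570) and 6 with length and GC trends removed (1509 of 14570). The 4 lower (1412 of 14570) became 2 with no filter (956 of 27030) and 8 at a mean of at least 5 FPKM (1164 of 8929). They became 11 with quantile normalization (1349 of 14570) and 1 without trend and robust (934 of 14570). With the length trend removed they became 8 (1438 of 14570), and with length and GC 9 (1068 of 14570). Against Input the 19 higher became 10 with length and GC and 7 to 18 with a library left out. Over all genes the count higher against Input also fell with length and GC, from 2795 to 2182 of 14458. The 3 lower (2393 of 14458) became 1 with no filter (1738 of 26165) and 5 at a mean of at least 5 FPKM (2048 of 9144). They became 5 with quantile normalization (2277 of 14458), 8 with length (2277 of 14458) and 6 with length and GC (1841 of 14458). Leaving out a single library lowered each of these counts in both comparisons, among guidance genes and among all genes alike.

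Among the named or called genes, these log2 fold changes changed sign with a call in the main or the alternative run. They were those of Plxna2 against IgG (-0.0138 with quantile normalization, -0.0438 with length, -0.0702 with length and GC), Plxna1 with length and GC (-0.0421 against IgG, -0.16 against Input), Plxna4 against Input (-0.0485 with length, -0.14 with length and GC) and Sema6b against Input with length and GC (-0.0061). Other genes, called in neither run, also changed sign, Sema3c against Input over protein-coding transcripts among them. The cause was not tested. A comparison left with 1 library in a group assumes that it varies like the other group.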

Other observations

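Levels set across the separately scaled frontal cortex and Input tables differ in preparation, polyA-selected against total RNA, and are given as values only. Plxna1 averaged 30.7 ± 3.46 FPKM in WT frontal cortex (SD, n = 4) and had 116 and 128 FPKM in the Input libraries. Sema6a averaged 10.2 ± 0.928 FPKM in WT and had 52.8 and 49.0 FPKM in Input. Plxna3 ran the other way, at 53.9 ± 9.04 FPKM in WT and 15.4 and 11.6 FPKM in Input. Slit3, under 1 FPKM in all 8 frontal cortex libraries, had 4.65 and 4.22 FPKM in Input. The share from protein-coding transcripts also differed, at 97.25% in WT and 54.5% in Input for Plxna1, and 49.1% and 85.0% for Plxna3. For Sema6a it was 93.6% in WT and 97.3% in Input, and for Slit3 84.95% and 98.9%. These genes were chosen after their values were seen.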
